A study of Mus musculus with 6 samples.

Results

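The 8 genes described here encode the DNA topoisomerases and the tyrosyl-DNA phosphodiesterases of the mouse. They were chosen by gene family, as the rows of the deposited table whose Ensembl identifiers map to the symbols Top2b, Top2a, Top1, Top1mt, Top3a, Top3b, Tdp1 and Tdp2. They make up 6 topoisomerase genes and 2 phosphodiesterase genes among 78298 identifiers, and all 8 had enough reads to enter the test. Polyadenylated RNA of the left brain was sequenced from 3 wild-type male mice and 3 male mice labelled Top2b-L (Homo), 1 library per mouse. The Top2b-L mice, called Top2b-low here, are homozygous for a CRISPR/Cas9 allele with an auxin-inducible degron tag, a peptide that directs a protein to degradation when auxin is given, fused in front of the Top2b reading frame. No drug was given to either group, and the labels do not say whether other alleles were present or how many founder lines were used. The library name of Top2b-low replicate 3 ends in dNdN and those of replicates 1 and 2 in Homo, the labels give all 3 the same genotype, and what dNdN stands for is not given. The age is 10 weeks in the sample labels and 3.5 months in the series text.

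Values are normalised counts, that is reads divided by a size factor of the library, and values per library are listed in the order of replicates 1, 2 and 3. The libraries held 16963067 to 35246703 reads. Replicate 3 of each genotype has a library name that begins with N22, and these 2 libraries stood apart from the other 4. They held 28629911 and 35246703 reads, against 16963067 to 17413959 in the other 4, so that depth went with N22. The 7 cerebellar markers summed to 1507 and 1631 normalised counts in the N22 libraries and to between 22090 and 28143 in the others, and all 7 were called lower in N22 by limma, Cbln3, Neurod1 and Zic1 among them. Of 14 brain markers limma called 2 lower and 1 higher in N22. It called 3 of 8 markers of meninges, choroid plexus and blood lower and 0 higher. All 14 brain markers were detected, and their sum was 210450 to 225040 in wild type and 212850 to 219990 in Top2b-low libraries. Those with the smallest p between genotypes were P2ry12 of microglia, Slc17a7 of excitatory neurons and Gfap of astrocytes, with log2 fold changes of 0.23, 0.21 and −0.23, none called. The red-cell gene Hbb-bs ranged from 1674 to 5048 in wild type and from 1965 to 62318 in Top2b-low libraries, with the highest value in Top2b-low replicate 1. Hba-a1, the other red-cell gene listed, did not follow it and was lowest in that library at 68.9, against 568 to 841 in wild type, and highest in Top2b-low replicate 2 at 2677. Of the choroid plexus markers Ttr and Folr1 had log2 fold changes of −0.10 and −0.13. The part of red cells or choroid plexus in the results below was not tested. The members, their sums and their ratios are therefore also given for the 4 libraries outside N22 and for the N22 pair, which has 1 mouse per genotype and no test. For the gene lists, limma called no gene between genotypes in the 6 libraries or in the 4 outside N22.

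Topoisomerases relieve the twisting and tangling of DNA that transcription and replication create. Type I enzymes cut 1 strand and type II enzymes cut both, and in each case the enzyme stays joined to the DNA end through a tyrosine until the break is resealed. Top2b encodes topoisomerase IIβ, the type II enzyme of postmitotic cells such as neurons, and its paralogue Top2a encodes topoisomerase IIα, the enzyme of dividing cells. Top1 encodes the nuclear type IB enzyme and Top1mt its mitochondrial relative. Top3a and Top3b encode type IA enzymes that act on single strands. When an enzyme is trapped on DNA, Tdp1 hydrolyses the bond left mainly by topoisomerase I and Tdp2 the bond left mainly by topoisomerase II.

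The start regions of the 2 type II genes are shown because these paralogues stood far apart in transcript level. Each run is the stretch from 250 to 51 bases before the RefSeq start on the GRCm38.p6 build, 5′ to 3′ in the direction of the gene. Capitals mark CCAAT or its reverse complement ATTGG, the letters of the CCAAT box bound by the factor NF-Y.
Top2b, chr14:16364956-16365155, plus strand: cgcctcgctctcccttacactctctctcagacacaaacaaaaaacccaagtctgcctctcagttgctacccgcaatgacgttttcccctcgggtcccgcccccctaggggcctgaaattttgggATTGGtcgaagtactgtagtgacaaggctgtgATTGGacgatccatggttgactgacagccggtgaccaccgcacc
Top2a, chr11:99024240-99024439, minus strand: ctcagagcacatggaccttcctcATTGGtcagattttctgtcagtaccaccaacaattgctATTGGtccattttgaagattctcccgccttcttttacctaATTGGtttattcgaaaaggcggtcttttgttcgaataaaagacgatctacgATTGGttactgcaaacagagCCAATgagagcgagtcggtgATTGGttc
The Top2a stretch held 6 matches, 5 of them as ATTGG, and the Top2b stretch held 2, both as ATTGG. At least 6 matches on either strand were found in 3 of 32851 RefSeq windows of 200 bases (0.00913%), and at least 2 in 6.96%. The windows of Top1 and Tdp1 held none and that of Top3b held 1, while 28.4% of all windows held at least 1. The table had windows for 5 of the 8 genes, and Top1mt, Top3a and Tdp2 were not among them. The Top2b stretch was 55.5% G or C and the Top2a stretch 43.0%. The letters GGGCGG or their reverse complement, counted as well, matched 1 time in the Top2b stretch and 2 times in that of Top1. The stretches of Top2a, Top3b and Tdp1 held none, and 24.6% of all windows held at least 1. A match describes letters, and binding was not measured. Any part of these letters in the transcript levels was not tested.

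Top2b carries the tag and is identified as ENSMUSG00000017485 on chromosome 14. Wild-type libraries held 3160, 3014 and 2485 normalised counts of it, and Top2b-low libraries 2152, 2314 and 1965. Every Top2b-low value lay under every wild-type value, and the lowest value of each group was its N22 library. Limma put the log2 fold change at −0.42 (SE 0.11), which did not pass its test (unadjusted p = 0.00629, Benjamini-Hochberg adjusted p = 0.99997 over 17391 genes). That test called 0 of the 17391 genes (0%), with 262 (1.51%) at an unadjusted p under 0.05, and edgeR and DESeq2 also called 0, with 250 and 168 unadjusted. Its mean in Top2b-low mice was 27.7% lower outside N22 and 20.9% lower within the N22 pair. With a term for N22, DESeq2 called 14 genes (0.0805%) and Top2b was among them (log2 fold change −0.42, SE 0.07, adjusted p = 4.88e-05). With the replicate number as a block DESeq2 called 13 (0.0748%) and gave Top2b an adjusted p of 0.000908, and among the 4 libraries outside N22 it called 8 (0.0460%), with 0.00531 for Top2b. Limma and edgeR with the same terms gave Top2b adjusted p of 0.224 and 0.225 with the N22 term and of 0.395 and 0.260 with the block. The neighbour Rarb, the retinoic acid receptor β, overlaps Top2b on the opposite strand, and whether counting used strand is not given. Rarb stood at 322 to 377 normalised counts in wild type and 341 to 368 in Top2b-low libraries, and the antisense gene Gm48163 at the start of Top2b at 1.21 or less. In bulk tissue, fewer cells of a type and less RNA per cell cannot be told apart.

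Top2a (ENSMUSG00000020914, chromosome 11), the paralogue nearest to Top2b, was the scarcest of the 8 transcripts. Wild-type libraries held 46.2, 28.8 and 24.2 normalised counts, and Top2b-low libraries 48.0, 38.8 and 39.6. The 2 groups overlapped, since wild-type replicate 1 lay above 2 of the 3 Top2b-low libraries. Means of 33.1 ± 11.6 for wild type and 42.2 ± 5.07 for Top2b-low (SD, n = 3 each) gave a log2 fold change of 0.39 (SE 0.28). Its 95% interval reached from 17.1% lower to 107% higher in Top2b-low mice. It did not pass limma's test (unadjusted p = 0.208, adjusted p = 0.99997). The values rest on 23 to 67 reads per library, so that counting error alone spans 18.3 to 43.3 normalised counts in wild-type replicate 2 (exact Poisson 95% interval). The difference was 15.8% in the 4 libraries outside N22 and 63.9% in the N22 pair, Top2b-low being higher in both. Without wild-type replicate 1 the log2 fold change was 0.65, with a 95% interval of 0.03 to 1.27 that lay off 0 (limma unadjusted p = 0.0437, adjusted p = 0.99996). Without wild-type replicate 3 it was 0.20, with an interval of −0.48 to 0.88.

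**Figure D1:**
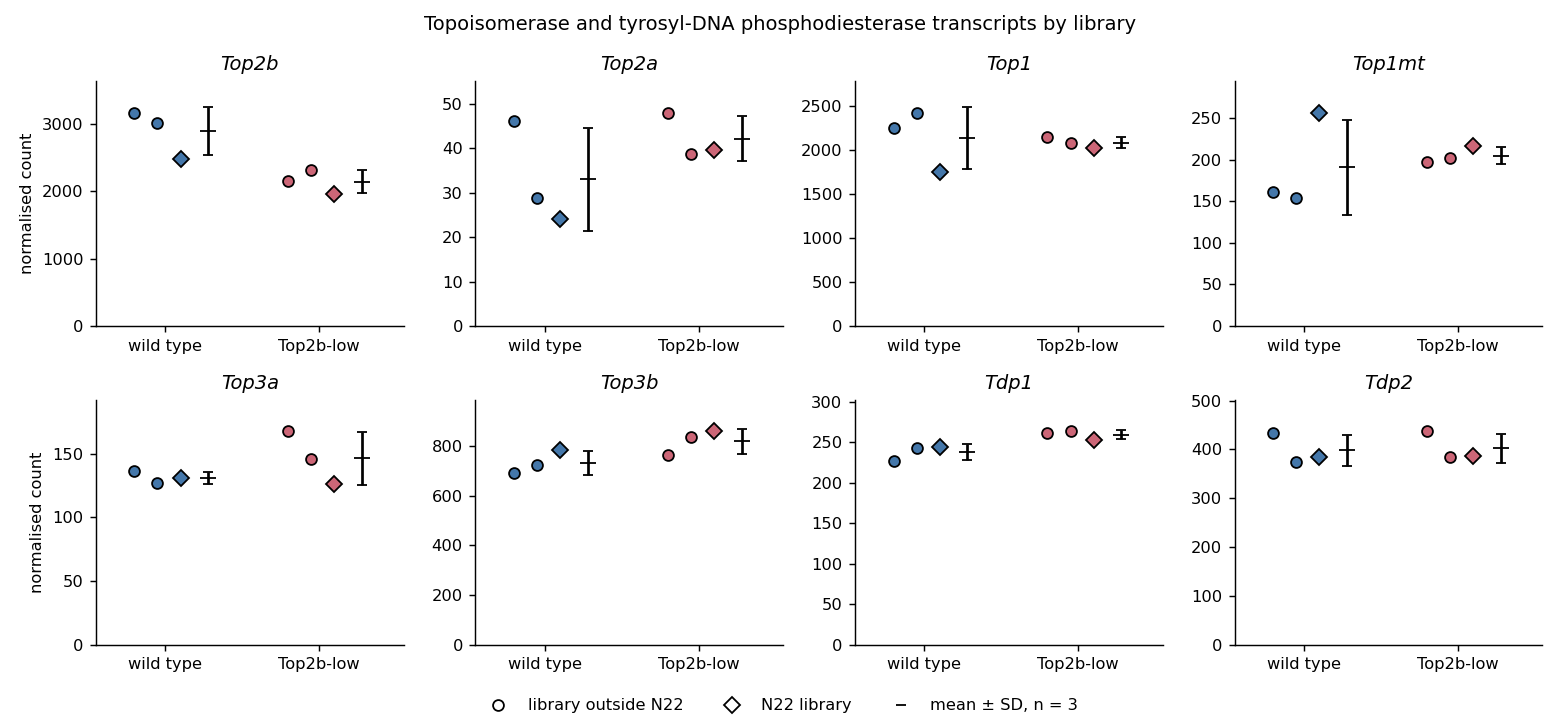
Normalised count of each gene in each library (vertical axes start at 0), with wild type in blue, Top2b-low in red, N22 libraries as diamonds and black bars for the mean ± SD of 3 libraries. Top2b is lower and Tdp1 higher in all 3 Top2b-low libraries than in all 3 wild-type libraries, while the groups of the other 6 genes overlap.

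Markers of dividing cells, listed because Top2a is expressed in such cells, showed no called difference, and none was at 0 in all libraries. Their summed level over 18 genes was 1192 to 1256 normalised counts in wild type and 1219.5 to 1350 in Top2b-low libraries, of which Pcna, which also serves DNA repair, gave 730 to 857 across all 6. Of the 18 genes 13 were tested, 10 with a positive and 3 with a negative log2 fold change, with a median of 0.08 against −0.0021 for all tested genes. Tpx2, a spindle assembly factor, had 52.2, 47.6 and 43.4 normalised counts in wild type against 67.7, 63.1 and 62.1 in Top2b-low libraries, without overlap (log2 fold change 0.43, SE 0.17, unadjusted p = 0.039). The centromere protein gene Cenpf went the other way, also without overlap, with 22.5 ± 6.58 and 15.5 ± 1.95 (SD, n = 3 each), and the mitotic activator Cdc20 had a log2 fold change of 0.34. The proliferation marker Mki67 averaged 33.6 ± 3.07 and 35.9 ± 2.42. Neuroblast markers summed to 2251 to 2423 in wild type and 2094 to 2552 in Top2b-low libraries, with log2 fold changes of 0.21 for Dcx, −0.37 for Dlx2 and −0.11 for Cd24a. Of the 7 oligodendrocyte precursor markers 5 had a negative log2 fold change, with a median of −0.19. Gpr17 (−0.19), Neu4 (−0.22) and C1ql1 (−0.45, unadjusted p = 0.0498) were lower in Top2b-low mice without overlap, and Tnr (0.14) was higher without overlap. Pdgfra (−0.08), Cspg4 (0.03) and Bmp4 (−0.23) overlapped between genotypes. Over all tested genes 3.04% were lower and 2.70% higher without overlap. Their sum, 6899 to 7471 in wild type and 7211 to 7466 in Top2b-low libraries, is mostly Tnr, and none of the 7 passed limma's test. The part of any of these cells in the Top2a values was not tested.

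The nuclear type I gene Top1 (ENSMUSG00000070544, chromosome 2) had nearly the same mean in both genotypes. Wild-type libraries held 2246, 2421 and 1746 normalised counts, and Top2b-low libraries 2146, 2082 and 2023. The wild-type libraries lay on both sides of the Top2b-low libraries, with the N22 library lowest. Limma's log2 fold change of −0.02 (SE 0.12) had a 95% interval from 19.6% lower to 20.4% higher in Top2b-low mice. Its level in Top2b-low mice was 9.41% lower outside N22 and 15.9% higher within the N22 pair.

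Top1mt (ENSMUSG00000000934, chromosome 15), which acts on mitochondrial DNA, differed more with N22 than with genotype. Wild-type libraries held 162, 154 and 256 normalised counts, and Top2b-low libraries 197, 202 and 216. The N22 library was the highest of each genotype, and the wild-type libraries lay on both sides of the Top2b-low libraries. The log2 fold change was 0.14 (SE 0.20, limma adjusted p = 0.99997), and the difference was 26.2% higher in Top2b-low mice outside N22 and 15.7% lower in the N22 pair. Leaving out wild-type replicate 1 or 2 took the log2 fold change of Top1mt to 0.04 or 0.01, and both 95% intervals held 0. Leaving out wild-type replicate 3 took it to 0.37, with an interval of 0.07 to 0.68 (limma unadjusted p = 0.024, adjusted p = 0.943). Outside N22 the interval was 0.03 to 0.64 (limma unadjusted p = 0.0367, adjusted p = 0.951). Both of these lay off 0, while those with the replicate block (−0.17 to 0.45) and the N22 term (−0.15 to 0.43) held 0. At an unadjusted p under 0.05 limma held 555 genes without wild-type replicate 3 and 818 outside N22. The 10 other genes of mitochondrial DNA upkeep had 5 positive and 5 negative log2 fold changes with a median of 0.00089. None passed the test, and those with the smallest p were the polymerase subunits Polg2 (−0.25) and Polg (0.07) and the transcription factor Tfb2m (0.10), all on the log2 fold change scale.

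Of the type IA genes, Top3b was slightly higher in the Top2b-low mice and Top3a was higher outside N22 alone, and neither passed the test. Top3b (ENSMUSG00000022779, chromosome 16), whose enzyme also acts on RNA with the partner Tdrd3, had 690, 722 and 782 normalised counts in wild-type libraries against 763, 835 and 858 in Top2b-low libraries. Wild-type replicate 3 lay above Top2b-low replicate 1 and under the other 2. The log2 fold change was 0.16 (SE 0.09, unadjusted p = 0.116, adjusted p = 0.99997), and Top3b was 13.2% higher in Top2b-low mice outside N22 and 9.76% higher in the N22 pair. With the replicate block its 95% interval of 0.02 to 0.31 lay off 0 (limma unadjusted p = 0.0305, adjusted p = 0.686), as did that with the N22 term, 0.01 to 0.32 (limma unadjusted p = 0.0383, adjusted p = 0.838). At an unadjusted p under 0.05 limma held 1169 of 17391 genes with the block and 1011 with the N22 term. Top3a (ENSMUSG00000002814, chromosome 11), which dissolves crossed DNA strands with the helicase Blm, had 136, 127 and 131 against 167, 146 and 126. Its lowest value was the N22 library of the Top2b-low group, and its log2 fold change was 0.15 (SE 0.14). Top3a was 19.2% higher in Top2b-low mice outside N22 and 3.70% lower in the N22 pair, and leaving out Top2b-low replicate 1 took the log2 fold change to 0.05 and leaving out Top2b-low replicate 3 to 0.25. Of 7 partner genes, 6 were tested and none passed. Blm averaged 114 ± 8.64 and 133 ± 22.7 normalised counts (SD, n = 3 each), and the RNA-binding Fxr1 1516 ± 196 and 1362 ± 69.9, while Fxr2, a relative of Fxr1, had a log2 fold change of −0.08.

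The phosphodiesterase gene Tdp1 was the only one of the other 7 genes whose genotypes did not overlap, and it did not pass the test. Tdp1 (ENSMUSG00000021177, chromosome 12) had 227, 243 and 244 normalised counts in wild-type libraries against 262, 263 and 253 in Top2b-low libraries. Means of 238 ± 9.48 and 260 ± 5.56 (SD, n = 3 each) put it 9.04% higher in Top2b-low mice, with a log2 fold change of 0.12 (SE 0.10, unadjusted p = 0.247, adjusted p = 0.99997). It was 11.8% higher outside N22 and 3.80% higher in the N22 pair. Among all tested genes 2.70% were higher and 3.04% lower in Top2b-low mice without overlap, 5.74% in all, and here it was 1 of 8 in each direction. Exact permutation over the 6 libraries (two-sided) gave p = 0.1 for Tdp1 and for Top2b, the smallest that 3 against 3 allows, and 0.2 to 0.9 for the other 6 genes. Tdp2 (ENSMUSG00000035958, chromosome 13), which frees DNA ends from topoisomerase II, had 434, 375 and 385.5 normalised counts against 437, 384 and 388. Its 2 groups covered nearly the same range, and the 95% interval of the difference ran from 14.9% lower to 20.3% higher in Top2b-low mice. Tdp2 was 1.498% higher outside N22 and 0.532% higher in the N22 pair.

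**Figure D2:**
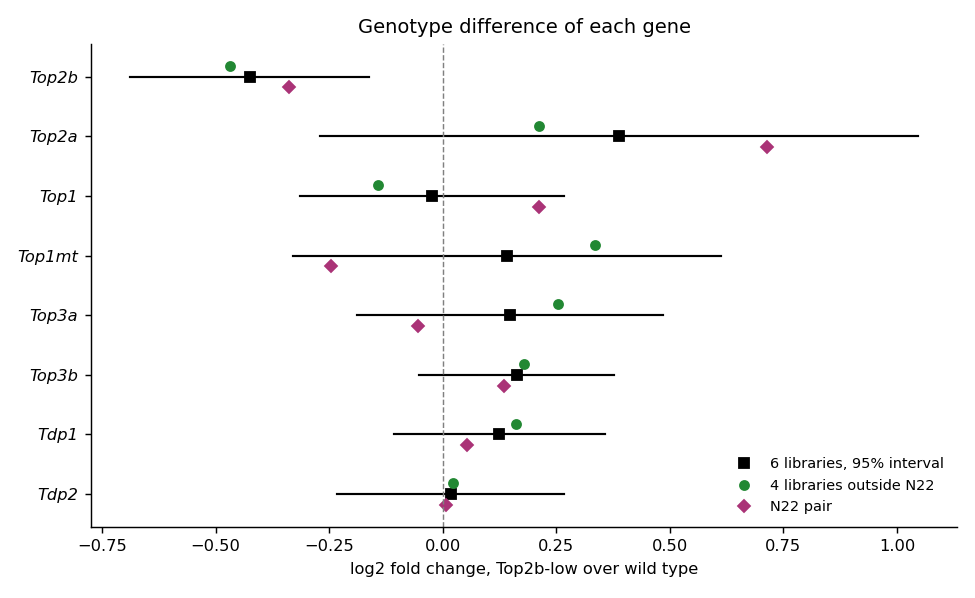
Log2 fold change of Top2b-low over wild type for each gene, with black squares and lines for the 6 libraries and their 95% limma intervals, green circles for the 4 libraries outside N22 and purple diamonds for the N22 pair (log2 ratios of mean normalised counts, no error). Over the 6 libraries with no further term the interval of Top2b alone lies off 0, and the N22 pair lies on the other side of 0 from the other libraries for Top1, Top1mt and Top3a.

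Genes that repair trapped topoisomerases showed no called difference. Of 16 genes for topoisomerase II breaks, 8 had a positive and 8 a negative log2 fold change with a median of 0.0012, from −0.20 to 0.20. Rad50, which holds broken ends together, had the smallest p among them and did not overlap, with 319 ± 12.0 and 367 ± 26.0 normalised counts (SD, n = 3 each, log2 fold change 0.20, SE 0.10, unadjusted p = 0.081). Brca1 stood at 43.9 ± 4.52 and 38.1 ± 2.49, also without overlap, and the end-processing nuclease gene Dclre1c at 262 ± 21.3 and 282 ± 25.2. Without overlap, 1 of the 16 was thus higher and 1 lower, against 2.70% and 3.04% of all tested genes. Of 12 genes for topoisomerase I breaks, 11 were tested, 6 with a positive and 5 with a negative log2 fold change and a median of 0.00057. The break sensor Parp1 (0.10), the nuclease gene Mus81 (0.10) and Rad52 (0.08) had the smallest p, given here as log2 fold changes. No gene of either list passed limma's test.

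Set per length, the transcripts covered a wide range. The place of Top2b in it depended on the length used and, per longest transcript, on genotype. Per kilobase of the longest annotated coding transcript, means over the 6 libraries were 547 normalised counts for Top1, 252 for Top3b, 243 for Top2b, 205 for Tdp2, 122 for Tdp1, 104 for Top1mt, 37.1 for Top3a and 7.20 for Top2a. On that scale the range of Top2b over the libraries (190 to 306) overlapped those of Top3b (225 to 279) and Tdp2 (191 to 223), and that of Tdp1 overlapped that of Top1mt. In wild type Top2b stood at 279 ± 34.4, above Top3b at 238 ± 15.1 (SD, n = 3 each). In Top2b-low mice it stood at 207 ± 16.9, under Top3b at 266 ± 16.1 and close to Tdp2 at 206 ± 15.2 (SD, n = 3 each). The longest Top2b transcript has 10.335 kb, of which 4.836 kb are coding. Per kilobase of coding length, a setting added after the data were seen, Top1 stood at 917, Top2b at 520, Tdp2 at 361 and Top3b at 300, and the order of the lower 4 was unchanged. Levels between genes are approximate, since the transcript lengths used in counting are not given.

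The difference in Top2a was small beside that in Top2b. The mean of Top2b was 743 normalised counts lower in Top2b-low mice, and that of Top2a was 9.11 higher, which is 1.23% of that difference. At the upper limit of its 95% interval the Top2a difference would be 35.2 normalised counts, or 4.74%. These percentages use counts not set per length, and they change with the length used. Per kilobase of longest transcript the wild-type and Top2b-low means were 279 and 207 for Top2b and 6.33 and 8.07 for Top2a. Per coding kilobase the sum of both type II genes was 25.1% lower in Top2b-low mice, at 452 ± 36.1 against 604 ± 75.5 (SD, n = 3 each), without overlap (exact permutation p = 0.1, two-sided). That sum was 27.1% lower outside N22 and 20.1% lower in the N22 pair. Top2b made up 97.7% to 99.0% of it in each library, so the sum repeats the Top2b difference and is no separate result. Top2a made up 1.52%, 0.999% and 1.02% of that sum in wild-type libraries against 2.30%, 1.74% and 2.08% in Top2b-low libraries. These shares follow from the Top2b values in their denominator as well as from Top2a. These are transcript levels, and protein was not measured.

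The other 5 topoisomerases together stood at nearly the same level in both genotypes per coding kilobase. Their sum per coding kilobase was 1389, 1467 and 1254 in wild-type libraries against 1404, 1398 and 1383 in Top2b-low libraries, with means of 1370 ± 108 and 1395 ± 11.2 (SD, n = 3 each, exact permutation p = 0.8, two-sided). The Top2b-low libraries lay within the range of the wild-type libraries, with a mean 1.85% lower outside N22 and 10.3% higher in the N22 pair. The length used bears on this sum: per longest transcript it was 934 ± 51.1 in wild type against 962 ± 2.82 (exact permutation p = 0.4), and per median coding transcript 1526 ± 37.1 against 1625 ± 37.0 (SD, n = 3 each, exact permutation p = 0.1). Per coding kilobase, of all 6 topoisomerases Top2b made up 32.0%, 29.8% and 29.1% in wild-type libraries against 24.1%, 25.5% and 22.7% in Top2b-low libraries. Its mean share was 23.0% and 17.7% per longest transcript and 64.3% and 55.8% per median coding transcript, lower in Top2b-low mice each time. Top1 made up 47.0% ± 3.77 and 49.3% ± 1.11 per coding kilobase (SD, n = 3 each), the largest share on that scale, but 12.9% and 14.7% per median coding transcript.

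**Figure D3:**
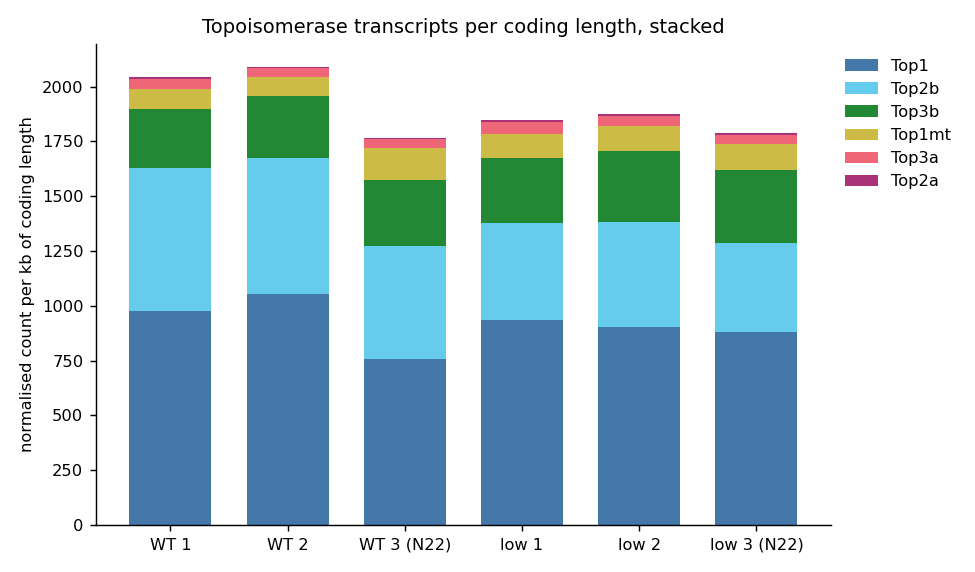
Normalised counts per kilobase of coding length for the 6 topoisomerase genes, stacked for each library from 0, with N22 libraries marked. The Top2b segment is 29.1% to 32.0% of the bar in wild type and 22.7% to 25.5% in Top2b-low libraries, and Top2a is a thin line at the top of every bar.

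A ratio of 2 genes within a library does not depend on the scaling of that library. Top1 stood at 71.1%, 80.3% and 70.3% of the Top2b count in wild-type libraries against 99.7%, 90.0% and 103% in Top2b-low libraries. Top3b stood at 21.8%, 24.0% and 31.5% of Top2b against 35.4%, 36.1% and 43.7%. Top2a relative to Top2b was 0.81 log2 units higher in Top2b-low mice. Of the 7 ratios to Top2b, 6 did not overlap between genotypes and were higher in Top2b-low mice, by 0.40 to 0.81 log2 units, with an exact permutation p of 0.1 each, the smallest the design allows. The ratio of Top1mt overlapped (0.57 log2 units, exact permutation p = 0.3). All 7 were higher in Top2b-low mice outside N22, by 0.33 to 0.80 log2 units, and in the N22 pair, by 0.09 for Top1mt to 1.03 for Top2a. Taken as differences within replicate numbers, the smallest exact p that 3 pairs allow is 0.25, which each of the 7 ratios reached. The ratio of any gene to Top2b carries the Top2b difference, and 47.9% of all tested genes had a ratio that was higher without overlap.

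**Figure D4:**
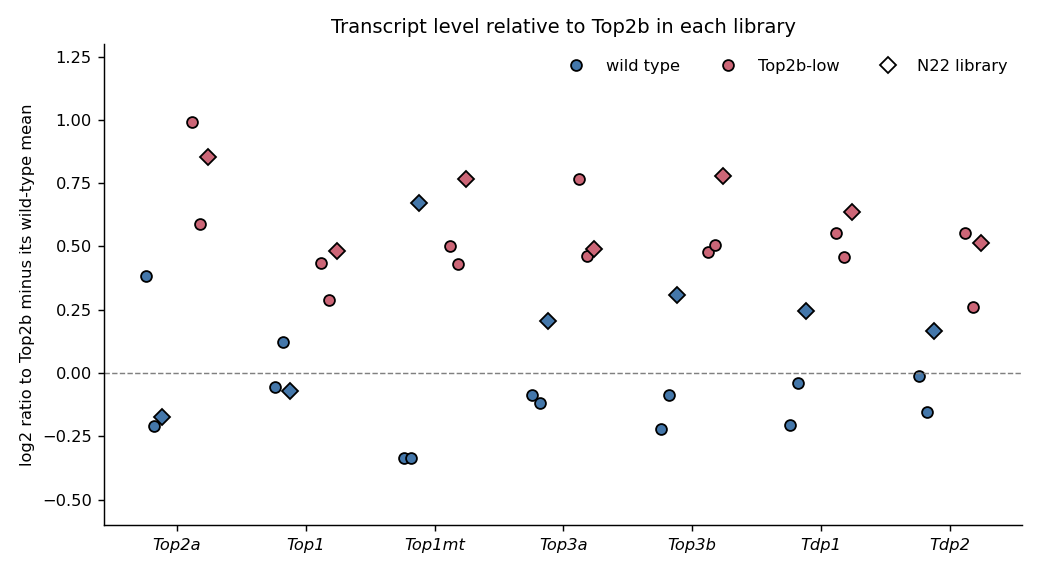
Log2 ratio of each gene's count to the Top2b count, less its wild-type mean, in each library (blue wild type, red Top2b-low, diamonds N22). The Top2b-low libraries lie above all wild-type libraries for 6 of the 7 genes, and for Top1mt the wild-type N22 library lies among them.

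The split by library name touched Top2b as well. With genotype in the model, limma called 4864 of 17391 genes (28.0%) different between the N22 libraries and the others, 16.7% lower and 11.3% higher. Among the 8 genes it called Top2b alone, which fell by 0.25 on the log2 scale in N22 (SE 0.06, adjusted p = 0.0161), with means of 2225 and 2660 normalised counts. Top1 and Top1mt stood just outside the threshold with log2 differences of −0.24 (adjusted p = 0.0514) and 0.41 (adjusted p = 0.0532), and their 2 N22 libraries did not overlap the other 4, as in 49.3% of all tested genes. The cerebellar markers named above moved with this split, with a median of −6.45 log2 units over the 7 markers, and their part in the Top2b value was not tested. Tdp1 showed a log2 difference of 0.00019 between N22 and the others, the smallest of the 8. Outside N22 the genotypes of Top2b, Top1, Top1mt, Top3a, Top3b and Tdp1 did not overlap, as in 5935 of all tested genes (34.1%), and those of Top2a and Tdp2 did. For Top1, Top1mt and Top3a the N22 pair then differed the opposite way, as in 2859 of all tested genes (16.4%). Limma's interaction of genotype with N22 called 4 genes (0.0230%), none of the 8, and at an unadjusted p under 0.05 it held 624 genes (3.59%), Top1 and Top1mt among them.

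Across the 6 libraries the transcripts differed in how much they varied. The highest value was 1.98 times the lowest for Top2a, 1.66 times for Top1mt, 1.61 times for Top2b and 1.39 times for Top1, and 1.16 to 1.33 times for the other 4. Among 12654 named genes with a mean of at least 50 normalised counts, those whose profile over the 6 libraries lay closest to that of Top2b, by root mean square difference of centred log2 values, were Lenep (0.07), Ormdl1 (0.08), Gins3 (0.08), Flt4 (0.08) and Gpt (0.09). A flat profile would lie 0.25 away. Lenep stood at 63.2, 62.7 and 44.8 normalised counts in wild-type libraries against 44.3, 47.3 and 39.0 in Top2b-low libraries. For Top2a the closest were Neu3 (0.15), Spry1 (0.15), Gbp4 (0.16), Hacd4 (0.16) and Slc16a4 (0.17), with a flat profile at 0.35. These distances describe 6 libraries and carry no test.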

How the data were processed

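For 6 libraries the authors deposited normalised counts, which are treated here as a signal. RSEM and mm39 are named in the submitters' processing notes, and the aligner, annotation, versions and use of strand are not given. Dividing by each library's smallest value above 0 returned whole reads for 100% of values (tolerance 1e-06 reads). Groups and replicate numbers came from the titles. Symbols for 51498 identifiers, transcript lengths and overlaps came from GENCODE vM21 (GRCm38), and promoter sequences from RefSeq.

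Genes with a mean of at least 10 normalised counts were tested on log2(normalised count + 1), a scale that understates changes of low genes, with limma 3.58.1 in R 4.3.3 (intensity trend, two-sided, Benjamini-Hochberg over all 17391 tested genes, threshold 0.05). On these reads edgeR 4.0.16 (quasi-likelihood) and DESeq2 1.42.0 (without independent filtering) each called 0 genes. Alternatives were the pseudocount, the filter, the scaling, an N22 term, the replicate block, the 4 libraries outside N22 and leaving out each library. Fits with edgeR or DESeq2 and those terms, DESeq2 on the 4 libraries, coding length, and the sums under other lengths were added after the data were seen. Limma without a further term, and limma, edgeR and DESeq2 with the N22 term, were run on simulated counts with known changes. The other fits were not.

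Libraries of the same number deviated together from their group means (correlations 0.33, 0.35 and 0.68). The replicate numbers are not said to pair animals, so the replicate block was run as an alternative to the unpaired main tests. Outside N22, libraries of different numbers correlated as well (0.37 for wild-type 1 with Top2b-low 2, 0.24 for wild-type 2 with Top2b-low 1). Replicates differed by more than sampling noise (chi-square per degree of freedom 4.27 to 37.4). Intervals from reads cover counting error only. Genes named were the 8 members, in each list the 3 with the smallest p, and the 5 genes closest to Top2b and to Top2a. Mki67, Pcna, Hba-a1, Neu4, Pdgfra, Cspg4, Bmp4, Rarb and Gm48163 were picked later, with values in view. The members and lists were chosen with earlier results of these data known.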

Additional observations from a re-analysis of the deposited data

Results flagged for a closer look

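For 3 of the 8 genes the N22 pair differed between genotypes in the opposite direction to the other 4 libraries, in which the genotypes did not overlap. Such opposite pairs were found for 16.4% of all tested genes, while 34.1% had genotypes that did not overlap outside N22. Top1 was 9.41% lower in Top2b-low mice outside N22 and 15.9% higher in the N22 pair, and the difference between these effects was 0.35 on the log2 scale (limma interaction term, unadjusted p = 0.0202, adjusted p = 0.997). For Top1mt, 26.2% higher and 15.7% lower, it was −0.58 (unadjusted p = 0.0309, adjusted p = 0.997). For Top3a, 19.2% higher and 3.70% lower, it was −0.30 (unadjusted p = 0.298, adjusted p = 0.997). Limma called this term for 4 of 17391 genes (0.0230%), and none of the 3 was among them. The N22 pair holds 1 mouse per genotype.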

How the results depend on the processing

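Top2b kept its direction under all 20 alternatives, with log2 fold changes from −0.53 to −0.36 when single replicates were left out. It passed the threshold under 3 of them, all with DESeq2: −0.42 with the replicate block, −0.42 with the N22 term and −0.46 in the 4 libraries outside N22. Limma with the replicate block gave −0.42 and called no gene, and the block changed no other call among the 8 genes. For all genes the calls moved from 0 to 13 with DESeq2 and the block (2 higher and 11 lower), 14 with DESeq2 and the N22 term (1 higher and 13 lower), and 8 with DESeq2 outside N22 (8 lower). With single replicates left out they were 0 to 1 in all, 0 to 1 lower. The cause of these differences was not tested. Leaving out wild-type replicate 1 or 2 turned the sign of Top1, with log2 fold changes over all left-out replicates of −0.163 to 0.0730. Leaving out wild-type replicate 2 or 3 or Top2b-low replicate 1 turned that of Tdp2, with −0.0426 to 0.0806. Top2a, Top1mt, Top3a, Top3b and Tdp1 kept their sign under the alternatives run and passed no threshold, with ranges over left-out replicates of 0.20 to 0.65 for Top2a, 0.0086 to 0.37 for Top1mt, 0.05 to 0.25 for Top3a, 0.12 to 0.21 for Top3b and 0.09 to 0.14 for Tdp1. Top2a was not tested with a minimum mean of 50. In the N22 comparison Top1 was called with a pseudocount of 5 and with that minimum, and Top1mt with edgeR and with that minimum. The 7 ratios to Top2b kept their direction in all 63 alternatives. All 7 carry the Top2b difference, so these alternatives largely repeat the direction of Top2b. By mean level over the 6 libraries Top2b ranked 3 per longest transcript, 1 per median coding transcript, which includes short fragments, and 2 per coding length. Depth limits Top2a most.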
